A study of Homo sapiens with 4 samples.

Results

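The mitogen-activated protein kinase (MAPK) feedback genes examined here are 10 genes of 3 families: the dual-specificity phosphatases DUSP1, DUSP4, DUSP5, DUSP6 and DUSP10, the Sprouty genes SPRY1, SPRY2 and SPRY4, and the Spred genes SPRED1 and SPRED2. They were chosen by symbol as known feedback genes, and all 10 were found among the 63568 gene identifiers of the deposited count tables. Of these, 6 had enough reads to be tested among 21932 genes, and 4 (DUSP4, DUSP5, DUSP6 and SPRY4) did not. RNA-Seq of HGC-27, an established gastric carcinoma cell line, compared 2 libraries of cells carrying control shRNA with 2 libraries of cells carrying shRNA against USP47, a ubiquitin-specific protease. Both groups had received a pLKO.1 lentivirus and were selected with puromycin for stable carriage, and the control virus carried a scrambled shRNA. The question of the comparison was which pathways respond to loss of USP47. The study used a pair of independent USP47 shRNAs, and the labels do not say which of them each knockdown library carries, so the spread within that group can include a difference between shRNAs. The series' design text calls the libraries biological duplicates and speaks of controls given vehicle (DMSO), whereas the sample labels name no drug and the methods speak of triplicates.

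Growth factor receptors signal through RAS, RAF and MEK to the kinase ERK, and stress and cytokine receptors signal through parallel cascades to p38 and JNK. The 3 families act as brakes on these cascades. DUSPs remove the activating phosphates from ERK, p38 or JNK. Sproutys interfere with signalling between the receptor and RAF, and Spreds recruit neurofibromin, which switches RAS off. Many of these genes are transcribed in response to the pathway that they restrain, which is why DUSP6, SPRY2 and SPRY4 are often read as markers of ERK output in carcinoma cells.

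The promoters of the gene that rose in the knockdown libraries and of the gene that fell most are shown. This pair was picked after the values were seen and because it differs in motif content. A link between motifs and expression was not tested. Each is the 250 bases before the annotated start, from RefSeq on GRCh38.p14, and both genes lie on the minus strand. Capitals mark the cAMP response element TGACGTCA, the site of CREB and ATF factors, and its shorter core TGACG, searched on both strands. The full element contains the core on each strand.
DUSP1, chr5:172771196-172771445: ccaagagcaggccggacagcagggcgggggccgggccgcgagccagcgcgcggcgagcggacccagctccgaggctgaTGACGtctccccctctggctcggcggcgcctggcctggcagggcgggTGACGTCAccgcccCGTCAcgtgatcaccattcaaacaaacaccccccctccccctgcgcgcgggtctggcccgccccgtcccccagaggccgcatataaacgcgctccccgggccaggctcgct
SPRED2, first of its annotated starts, chr2:65432600-65432849: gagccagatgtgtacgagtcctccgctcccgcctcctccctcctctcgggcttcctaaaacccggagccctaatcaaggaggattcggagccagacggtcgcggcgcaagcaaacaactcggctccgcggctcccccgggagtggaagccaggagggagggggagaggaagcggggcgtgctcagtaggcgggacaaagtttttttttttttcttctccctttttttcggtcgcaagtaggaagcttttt
In DUSP1 the full element lay at positions -125 to -118 from the start, and TGACG matched 4 times, at -172 to -168, at -125 to -121, at -122 to -118 and at -111 to -107. The SPRED2 window held none of the letters searched. Among all 35116 promoters of the table, 1.65% held TGACGTCA and 21.2% held TGACG. The search of the feedback genes covered 13 promoters of 8 of the 10 genes. Promoters of DUSP4 and DUSP5 were not examined, so nothing is said of their motifs. TGACG occurred once in a promoter of SPRY2 (-190 to -186) and once in that of SPRY4 (-68 to -64). The remaining windows, among them both of DUSP10, held no match. The AP-1 site TGANTCA, the ETS site CCGGAAGT and the CArG box, which were held by 6.57%, 3.42% and 1.16% of all promoters, matched in none of the 13 windows. A match describes letters only, and binding was not measured.

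The libraries held between 15649899 and 20140273 counts on genes. The targeted gene USP47 had 1357 and 1297 counts under control shRNA against 749 and 309 under USP47 shRNA. After scaling to CPM (counts relative to a library size that the TMM method adjusts) this was 73.1 ± 9.83 CPM (SD, n = 2) in control and 28.8 ± 10.2 CPM (SD, n = 2) in knockdown, and the knockdown libraries retained 49.3% and 29.5% of the control mean. The fitted log2 fold change was -1.34 (SE 0.21, adjusted p = 0.00362). Here and throughout, fold changes are USP47 shRNA over control shRNA, p-values come from the quasi-likelihood test of edgeR and are adjusted by Benjamini-Hochberg for all 21932 genes, and a gene is said to have risen or fallen when the adjusted p was under 0.05. By this rule 6.52% of tested genes rose, 9.56% fell and 16.1% did either, and all genes had a median log2 fold change of -0.0083. Of the genes checked for the identity of the line, the mesenchymal marker VIM had 7201 to 9236 counts per library. Of the epithelial markers, KRT8 had 10 to 19, KRT18 and KRT19 at most 1, EPCAM 3 to 12 and CDH1 8 to 28. The keratins that define epithelial cells were thus at or near 0 in all libraries. EPCAM was also lower in knockdown (log2 fold change -1.84, adjusted p = 0.0416). PTPRC, CD3E, CD68, CDH5 and NEFM, markers of immune, endothelial and packaging cells, had at most 12 counts in any library.

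Among the 6 tested genes, DUSP1 rose and SPRED1 and SPRED2 fell, while SPRY1, SPRY2 and DUSP10 did not pass the test. Thus 50.0% of the 6 passed, against 16.1% of all tested genes. The median log2 fold change of the 6 was -0.03, with 3 positive and 3 negative values. In 4 of the 6 (DUSP1, DUSP10, SPRED1 and SPRED2) the control and knockdown libraries did not overlap in CPM, which was also true of 61.0% of all tested genes, so the separation alone says little with 2 libraries a group. In bulk RNA, a change in the number of cells that express a gene and a change in RNA per cell cannot be told apart.

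**Figure D1:**
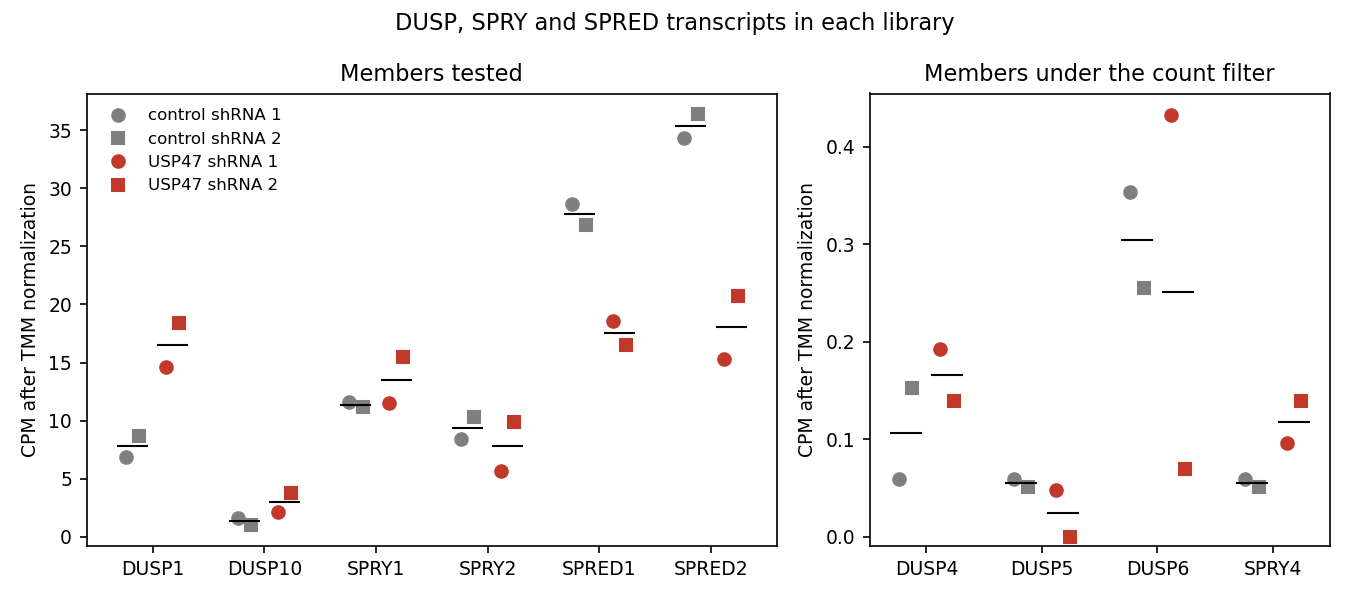
CPM after TMM normalization of the 10 genes in each library, with the 6 tested genes on the left and the 4 with too few reads on the right, on separate scales. Grey symbols are control shRNA and red symbols USP47 shRNA, circles are replicate 1 and squares replicate 2, and the black bars are group means. DUSP1 and DUSP10 lie higher and SPRED1 and SPRED2 lower in both knockdown libraries, whereas the libraries of SPRY1 and SPRY2 overlap.

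DUSP1 is a nuclear phosphatase that acts on p38, JNK and ERK and is an immediate-early gene. DUSP1 (ENSG00000120129, chr5:172195099-172198198 on GRCh37, minus strand) had 117 and 170 counts under control shRNA against 304 and 264 under USP47 shRNA. These were 6.90 and 8.67 CPM in control and 14.6 and 18.4 CPM in knockdown. Both knockdown libraries were above both controls, at 188% and 236% of the control mean. The log2 fold change was 1.07 (SE 0.18, 95% interval 0.67 to 1.48), a fold of 2.11 (1.59 to 2.78), with an adjusted p of 0.00478. The call was the same under all 7 other settings of test, scaling, filter and block, with log2 fold changes of 1.00 to 1.09, and without any 1 library, with 0.91 to 1.25. An unnamed gene antisense to DUSP1 had at most 1 count in a library.

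DUSP10, a phosphatase that prefers JNK and p38 to ERK (chr1:221874766-221915431 on GRCh37, minus strand), was the other DUSP with enough reads. It had 28 and 20 counts in control and 45 and 54 in knockdown, or 1.65 and 1.02 against 2.16 and 3.76 CPM. The knockdown libraries were higher than both controls, but the counts were few. Its log2 fold change of 1.12 (SE 0.35, 95% interval 0.36 to 1.89) was about that of DUSP1 with a wider error, and the adjusted p of 0.0510 missed the threshold, which does not show that DUSP10 was the same in both groups. The adjusted p was 0.000411 with the replicate number as a block and 0.0485 and 0.0492 with DESeq2 size factors and a stricter count filter. It was between 0.0523 and 0.0925 under the other 4 settings. Without control library 1 or knockdown library 1 DUSP10 passed (adjusted p = 0.0161 and 1.83e-05), and without control library 2 or knockdown library 2 it did not (adjusted p = 0.258 and 0.0868).

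The other 3 DUSPs were barely detected. DUSP6, the cytoplasmic ERK phosphatase (chr12:89741012-89746278 on GRCh37, minus strand), had 6 and 5 counts in control and 9 and 1 in knockdown, so the lowest and the highest library were both knockdown libraries. DUSP4, a nuclear phosphatase inducible by ERK, had 1, 3, 4 and 2 counts in control 1, control 2, knockdown 1 and knockdown 2. DUSP5, a nuclear phosphatase specific for ERK, had 1, 1, 1 and 0 counts in the same order, and its count of 0 allows up to 0.209 CPM in that library (3 counts, on the same TMM scale), for counting error only. A difference in any of these genes was not detectable at this depth. Among the 5 DUSPs examined, without their relatives, DUSP1 made up between 85.4% and 91.7% of the summed level, in TPM (a count corrected for gene length and scaled to the same sum in every library), in each of the 4 libraries.

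Sproutys are membrane-associated adaptors that are phosphorylated on receptor activation. SPRY1 (chr4:124317950-124324915 on GRCh37, plus strand) had 197 and 219 counts in control and 240 and 222 in knockdown, or 11.6 and 11.2 against 11.5 and 15.5 CPM. Knockdown library 2 stood above the other 3, and knockdown library 1 lay between the controls. The log2 fold change was 0.24 (SE 0.17, 95% interval -0.15 to 0.62, adjusted p = 0.375). It passed the test only without knockdown library 1 (log2 fold change 0.45, adjusted p = 0.0197).

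SPRY2, which also binds the ubiquitin ligase CBL (chr13:80910111-80915261 on GRCh37, minus strand), had 143 and 203 counts in control and 118 and 142 in knockdown. In CPM these were 8.43 and 10.3 against 5.67 and 9.89. Knockdown library 1 was the lowest and knockdown library 2 lay between the controls. The log2 fold change was -0.30 (SE 0.24, 95% interval -0.84 to 0.24, adjusted p = 0.427). This value rested on which knockdown library was kept: it was -0.73 without knockdown library 2 (adjusted p = 0.000942) and 0.078 without knockdown library 1 (adjusted p = 0.781). SPRY4 (chr5:141689992-141706020 on GRCh37, minus strand) had 1 count in each control and 2 in each knockdown library, so no change could be seen at this depth.

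Spreds are relatives of the Sproutys and carry an EVH domain through which they hold neurofibromin. SPRED2 (chr2:65537985-65659771 on GRCh37, minus strand) had 583 and 714 counts in control and 319 and 298 in knockdown. These were 34.4 and 36.4 CPM in control and 15.3 and 20.8 CPM in knockdown. Both knockdown libraries lay far below both controls, at 43.4% and 58.7% of the control mean. The log2 fold change was -0.98 (SE 0.16, 95% interval -1.34 to -0.62), a fold of 0.508 (0.396 to 0.651), with an adjusted p of 0.00432. SPRED2 fell under all 7 other settings and without any 1 library (log2 fold change -1.20 to -0.76). A gene on the same strand within SPRED2 had 4 to 12 counts per library.

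SPRED1, the gene mutated in Legius syndrome (chr15:38545037-38649450 on GRCh37, plus strand), had 486 and 527 counts in control and 387 and 237 in knockdown, or 28.7 and 26.9 against 18.6 and 16.5 CPM. The knockdown libraries were at 67.0% and 59.5% of the control mean and did not overlap the controls. The log2 fold change was -0.66 (SE 0.14, 95% interval -0.97 to -0.35), a fold of 0.634 (0.512 to 0.786), with an adjusted p of 0.0127. SPRED1 fell under all 7 other settings, but without control library 1 (-0.61, adjusted p = 0.169) or control library 2 (-0.71, adjusted p = 0.0687) it did not pass the test.

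**Figure D2:**
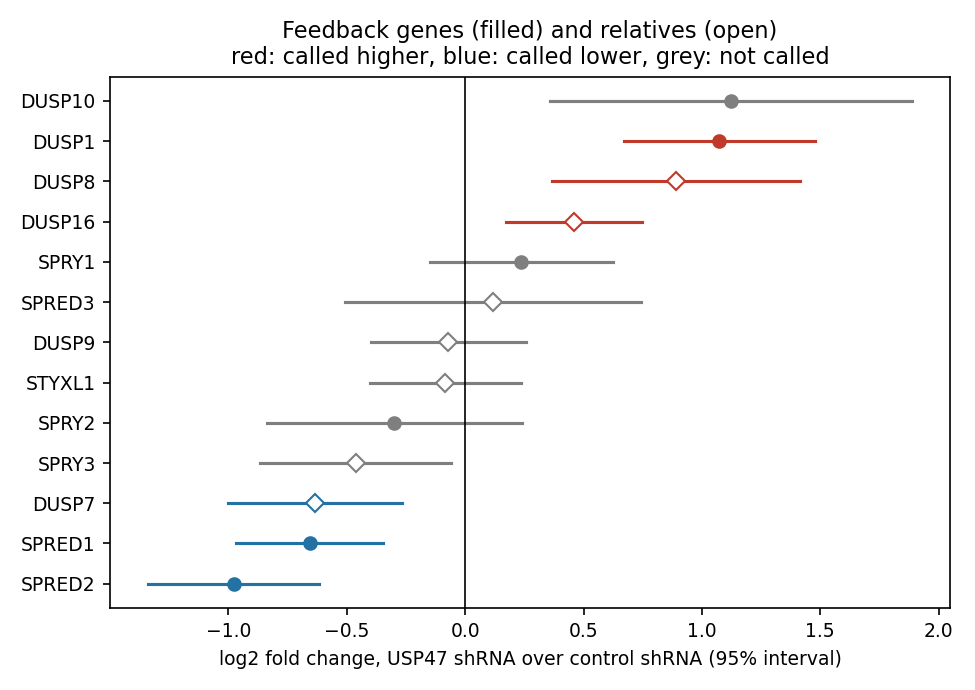
Log2 fold change, USP47 shRNA over control shRNA, with its 95% interval from edgeR (n = 2 libraries per group), of the 6 tested genes (filled circles) and of 7 close relatives (open diamonds), ordered by value. Red genes rose, blue genes fell and grey genes did not pass. DUSP10 and SPRY3 have intervals that leave out 0 but adjusted p-values of 0.0510 and 0.110, since the intervals are not adjusted for the number of genes.

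**Figure D3:**
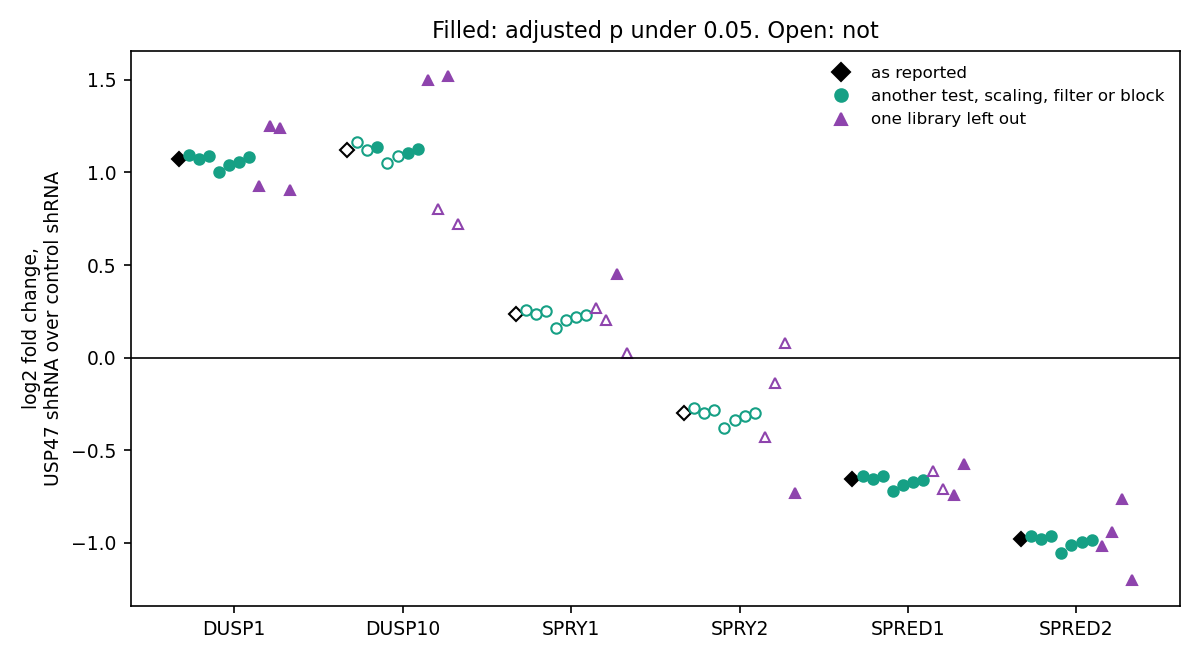
Log2 fold change of the 6 tested genes as reported (black diamonds), under each of 7 other settings (green circles) and without each library in turn (purple triangles), filled where the adjusted p was under 0.05. DUSP1 and SPRED2 are filled throughout, SPRED1 stays below 0 but is open without either control library, and SPRY2 crosses 0 without knockdown library 1.

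Levels of different genes were compared only in TPM. In control cells the order was SPRED2 (9.39 ± 0.465 TPM, SD, n = 2), DUSP1 (5.24 ± 0.373), SPRED1 (4.61 ± 0.624), SPRY1 (3.95 ± 0.465), SPRY2 (3.88 ± 0.213) and DUSP10 (0.534 ± 0.223), with DUSP6 at 0.0909 ± 0.0288 TPM. Within this order SPRED2 lay above all the others in both libraries, whereas DUSP1 and SPRED1, SPRED1 and SPRY1, and SPRY1 and SPRY2 overlapped as neighbours. In knockdown cells DUSP1 came first (10.2 ± 0.434 TPM), followed by SPRED2 (4.34 ± 0.0391), SPRY1 (4.23 ± 0.00854), SPRY2 (2.88 ± 0.539), SPRED1 (2.72 ± 0.776), DUSP10 (1.04 ± 0.192) and DUSP6 (0.0759 ± 0.0843). SPRY2 and SPRED1 overlapped there, and the other neighbours did not.

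The summed TPM of the 10 genes was 28.6 and 26.9 in control and 25.9 and 25.2 in knockdown. In TPM its make-up differed more than its total. TPM do not carry the TMM scaling, so a total compared across libraries depends on the scale. For example, DUSP1 was lower in knockdown library 2 than in knockdown library 1 in TPM (9.89 against 10.5). In CPM it was higher there (18.4 against 14.6). DUSPs took 20.4% and 22.3% of the sum in control and 44.7% and 44.1% in knockdown. Spreds took 51.6% and 49.2% in control and 29.2% and 26.0% in knockdown, and Sproutys between 26.0% and 29.9% in all libraries. These shares describe the 4 libraries and were not tested. They follow from the DUSP1, SPRED1 and SPRED2 levels above.

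**Figure D4:**
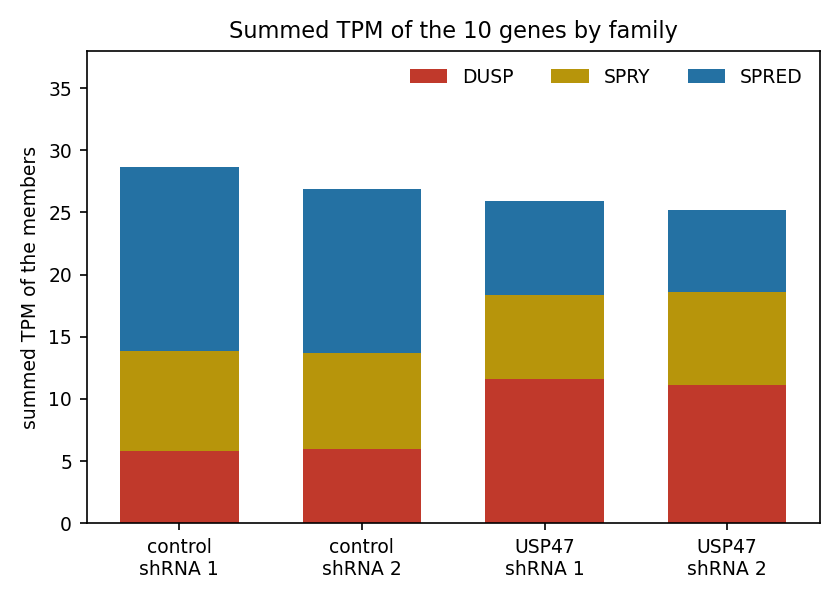
Summed TPM of the 10 genes in each of the 4 libraries, with the bars, which start at 0, divided into DUSP (red), Sprouty (yellow) and Spred (blue) genes. The totals lie between 25.2 and 28.6, while the DUSP portion is larger and the Spred portion smaller in both knockdown libraries.

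The close relatives outside the 10 genes also moved in both directions. Of 8 relatives, 7 were tested, 2 rose and 1 fell, with a median log2 fold change of -0.07. That is 42.9% of those tested, against 16.1% of all tested genes. DUSP8 (8.55 and 8.36 CPM in control, 11.5 and 20.1 in knockdown) and DUSP16 (51.4 and 51.7 in control, 66.0 and 76.0 in knockdown), which act on JNK and p38, rose by log2 fold changes of 0.89 (SE 0.24, adjusted p = 0.0299) and 0.46 (SE 0.13, adjusted p = 0.0371). DUSP7, a cytoplasmic ERK phosphatase, had 24.9 and 30.7 CPM in control and 15.9 and 20.1 in knockdown, and fell (log2 fold change -0.63, SE 0.17, adjusted p = 0.0291). The DUSP16 call was lost without control library 1 (adjusted p = 0.374), without control library 2 and when low counts were not filtered (adjusted p = 0.0615), the DUSP7 call without control library 2 (adjusted p = 0.285), and with scaling by library size alone the adjusted p was 0.0550 for DUSP8 and 0.0531 for DUSP16. SPRY3 had a log2 fold change of -0.46 (95% interval -0.87 to -0.06, adjusted p = 0.110), SPRED3 0.12 (adjusted p = 0.807), DUSP9, a cytoplasmic ERK phosphatase, -0.07 (adjusted p = 0.777) and the catalytically inactive STYXL1 -0.08 (adjusted p = 0.725). DUSP2 had 0 and 1 counts in control and 2 and 3 in knockdown and was not tested.

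Of 15 other brakes on receptor kinases and RAS, all tested, 2 rose and 1 fell, with a median log2 fold change of -0.07. Thus 3 of the 15 passed, a share close to the 16.1% of all tested genes. IL17RD, also called Sef, which restrains fibroblast growth factor signalling to ERK, had 19.5 and 19.2 CPM in control and 4.33 and 5.78 in knockdown. It fell, with a log2 fold change of -1.95 (SE 0.18, adjusted p = 0.00047), under all 7 other settings and without any 1 library. CBLB, a ubiquitin ligase for activated receptors (0.73, SE 0.12, adjusted p = 0.00482), and PEBP1, an inhibitor of RAF (0.57, SE 0.14, adjusted p = 0.0212), rose. Both calls were lost without control library 1 (adjusted p = 0.0741 for CBLB and 0.247 for PEBP1) and without control library 2 (0.0802 and 0.188).

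Genes of the cascade that the brakes act on also moved both ways. Of 21 genes from the receptor adaptors to ERK and its kinase substrates, all tested, 4 rose and 2 fell, with a median log2 fold change of 0.21. Together 28.6% passed, against 16.1% of all tested genes. BRAF (0.55, SE 0.12, adjusted p = 0.0158) and ARAF (0.46, SE 0.14, adjusted p = 0.0464), kinases below RAS, the adaptor GRB2 (0.52, SE 0.14, adjusted p = 0.0316) and the ERK-activated kinase RPS6KA2 (0.70, SE 0.19, adjusted p = 0.0299) rose. The phosphatase PTPN11 (-0.55, SE 0.13, adjusted p = 0.0193) and the docking protein GAB1 (-0.49, SE 0.14, adjusted p = 0.0367), which link receptors to RAS, fell. None of the 21 passed in edgeR's test without control library 1 or without control library 2, when 2 and 6 had an unadjusted p under 0.05 and the named 6 had adjusted p-values of 0.0557 (RPS6KA2) to 0.466 (ARAF), and 4 passed in DESeq2's test with all libraries.

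The p38 and JNK cascades, on which DUSP1 and DUSP10 act, had 4 genes that rose and 3 that fell among 20, with a median log2 fold change of 0.10. Here 35.0% passed, against 16.1% of all tested genes. MAPKAPK2, the kinase activated by p38 (0.59, adjusted p = 0.0183), and the upstream kinases MAP3K11 (0.59, adjusted p = 0.0207), MAP3K2 (0.47, adjusted p = 0.0330) and MAP3K1 (0.52, adjusted p = 0.0389) rose. MAPK10, a JNK best known from neurons, had 68 counts in each control library against 29 and 16 in knockdown, and fell (-1.54, SE 0.25, adjusted p = 0.00418). MAP3K7, the kinase TAK (-0.61, adjusted p = 0.0153), and the p38 kinase MAPK11 (-0.54, adjusted p = 0.0489) also fell. MAPK10 passed under all 7 other settings and without any 1 library. MAPK11 passed in 2 of these 7 settings, and all calls but that of MAPK10 were lost without control library 1 or 2, when their adjusted p-values lay between 0.0933 (MAP3K11) and 0.332 (MAP3K2).

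Among 21 genes known as transcriptional targets of ERK signalling, 20 were tested and 9 rose, with a median log2 fold change of 0.54. These 9 were 45.0% of those tested, whereas 6.52% of all tested genes rose. The log2 fold change was positive in 14 genes. It was negative in 6, from -1.01 to -0.07: PHLDA1, EPHA2, ETV1, ETV4, ETV5 and FOSL1. None fell in edgeR's or DESeq2's test of all 4 libraries, although 1 gene was lower with an unadjusted p under 0.05 in each, ETV5 (named after its values were seen; log2 fold change -1.01, adjusted p = 0.0618 in edgeR). ETV5 fell with the replicate block (12 higher, 1 lower) and without control library 2 (7 higher, 1 lower), and ETV5, ETV1 and PHLDA1 fell without knockdown library 2 (10 higher, 3 lower). FOS rose from 16 and 23 to 115 and 102 counts, and JUN from 192 and 251 to 735 and 858, both subunits of AP-1. FOSB (2.73, SE 0.24) and EPHA4, an ephrin receptor (1.57, SE 0.16, 208 and 201 counts in control against 643 and 515 in knockdown), rose as well. These 4 and EGR1 passed under all 7 other settings and without any 1 library. The CCND1 and MYC calls were lost without control library 1 (adjusted p = 0.437 and 0.417) and control library 2 (0.278 and 0.170), and the JUNB call without control library 1 (0.0509). The EGR3 call, on 1 to 14 counts per library, was lost without control library 2. It was also lost with library size alone (adjusted p = 0.0672) and when low counts were not filtered (0.0609). EGR3 had no adjusted p in DESeq2's test and was not tested under the stricter count filter. Set beside these, DUSP1 had a log2 fold change of 1.07, whereas SPRY2 (-0.30, adjusted p = 0.427) and SPRY1 (0.24, adjusted p = 0.375) did not pass. The ERK-inducible DUSP6, SPRY4, DUSP4 and DUSP5 had at most 9 counts in a library. The lists were chosen with earlier results of these data known, so these counts describe the libraries and are not independent evidence of a direction.

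**Figure D5:**
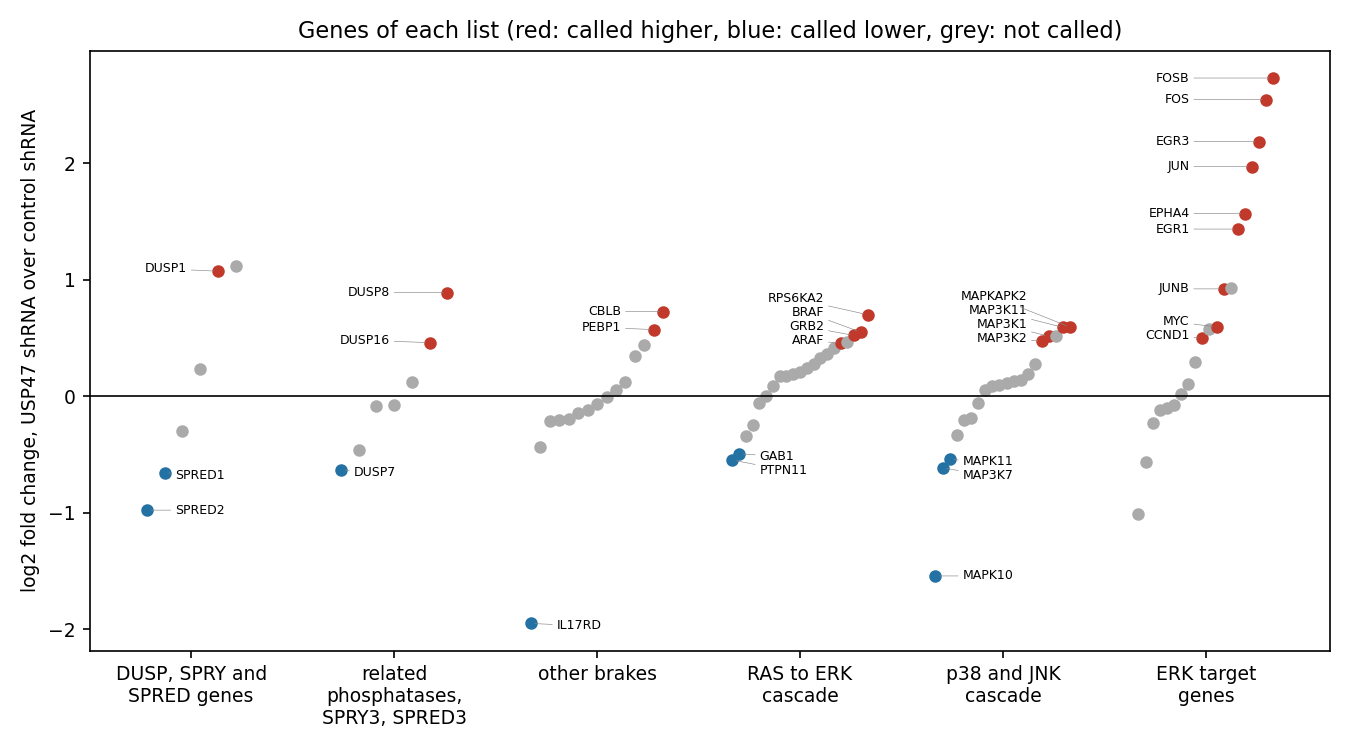
Log2 fold change, USP47 shRNA over control shRNA, of each tested gene of the 10 genes and of 5 related lists, ordered within a list. Red points rose, blue points fell and grey points did not pass edgeR's test, so that the ERK targets show 9 red and 0 blue points and the other lists show both colours.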

How the data were processed

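RNA-Seq of 4 HGC-27 libraries was grouped by the submitters' labels. The authors trimmed bases below a quality score of 20 and worked on the hg19 build. Their tools were STAR 2.7.5c for alignment, SAMtools 1.9 for filtering, which took out duplicates and poor alignments, and DESeq2 1.26.0 for testing. Removal of duplicates can compress the changes of abundant genes. The submitters' processing notes list featureCounts. The annotation and strand setting are not given in the sources used here, and the labels name a stranded kit where the methods name another. The authors deposited raw counts per gene, TPM and FPKM. TPM ranked genes within libraries, and FPKM entered no comparison.

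Counts were fitted in edgeR 4.0.16 (R 4.3.3; TMM, filterByExpr, robust quasi-likelihood, Benjamini-Hochberg over 21932 genes). CPM carry the TMM scaling, and an SE is the log2 fold change over the square root of F. The fit was tested on simulated data. P-values set the difference between the groups against the spread of libraries within a group, estimated in part across genes. That spread may be technical. DESeq2 1.42.0 and the alternatives in the closing section were also run. Gene positions are from a GRCh37 annotation and promoters from RefSeq (GRCh38.p14).

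The 10 genes and the lists were chosen with earlier results of these data known. Named were all 10 genes, USP47, every close relative, and of each other list up to 4 genes per direction with the smallest p among those past the threshold. Of the ERK targets, the other genes that rose were also named, for how their calls held. Those with a negative log2 fold change were named after their values were seen. Promoter motifs were described without a test.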

Additional observations from a re-analysis of the deposited data

How the results depend on the processing

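Alternatives were the DESeq2 Wald test, the legacy quasi-likelihood method, DESeq2 size factors, library size alone, no filter, at least 10 counts in every library, the replicate block, and leaving out each library, where the lone library of a group is assumed to vary like the others. Of the 10 genes, 3 were called, 4 with DESeq2 size factors, the stricter filter or the replicate block, and 2 to 5 without 1 library. Over all genes 3527 were called, 7422 with the replicate block and 1230 to 7270 without 1 library. The labels share replicate numbers, but no source says that a number marks a batch. The deviations of the replicates with the same number correlated at 0.213 across genes, with 2 pairs. The replicate block gave 5 calls among the other brakes and 12 in the RAS to ERK cascade. Library size alone gave 1 call among the relatives and 4 in the p38 and JNK cascade, where no filter also gave 4. Without 1 library the calls ranged from 1 to 3 (relatives), 1 to 6 (other brakes), 0 to 15 (RAS to ERK), 1 to 9 (p38 and JNK) and 6 to 13 (ERK targets), and the log2 fold change of USP47 from -1.75 to -1.01. SPRY2 was -0.73 without USP47 shRNA replicate 2 and reversed, from -0.30 to 0.078, without USP47 shRNA replicate 1. The causes were not tested. At this depth DUSP4, DUSP5, DUSP6 and SPRY4 could not be compared.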
